A study of Mus musculus with 6 samples.

Results

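Broad H3K4me3 domains were the peaks of at least 3000 bp in the list from mutant cells given vehicle control (Q111SST), chosen by their width in that list alone. They were 795 of the 40406 peaks of that list, or 1.97% (95% Wilson interval 1.84% to 2.11%), and the 6 deposited lists together held 227418 peaks. The lists come from H3K4me3 ChIP-Seq of STHdh cells, conditionally immortalized mouse striatal progenitors of strain C57BL/6, in which Q7 names the wild type line (STHdhQ7, spelled STHdh7 in the sample label) and Q111 the mutant line (STHdhQ111), homozygous for a knocked-in mutant huntingtin. Each genotype is a single purchased line, so genotype and line cannot be told apart. All cells spent 24 hours without serum. Q7SST and Q111SST received vehicle (DMSO), and the other 4 lists came from Q111 cells given 10 uM cyproheptadine or loxapine (Group A of the study), or DKI (diacylglycerol kinase inhibitor II) or meclizine (Group B). There was 1 list per condition and no replicate list, so no test between conditions was made, and intervals cover counting error only.

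H3K4me3, trimethylation of lysine 4 of histone H3, is laid down around the starts of active genes, most strongly on the nucleosomes that flank a CpG-rich promoter. The start itself often lies in a stretch with few nucleosomes. At most genes the mark spans a short stretch, while genes of cell identity and of rapid response are known to carry it far into the gene body.

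A domain was called broken in another list when 2 or more peaks of that list overlapped it, and the stretch between neighbouring pieces is called a gap. The smallest distance between neighbouring peaks was 773 to 813 bp in the 6 lists, so a gap is a stretch of at least about that length with no called peak. The sequences below are 240 bases from inside the gap that the most lists shared at 5 of the named domains, read from GRCm38 along the gene, with CpG dinucleotides in capitals. They are shown as examples of gaps on CpG-rich stretches, many of them at the start, and on CpG-poor stretches away from it. Other gaps lay between these, and some gaps without a start were CpG-rich.
Junb gap, chr8:84978080-84978319, minus strand: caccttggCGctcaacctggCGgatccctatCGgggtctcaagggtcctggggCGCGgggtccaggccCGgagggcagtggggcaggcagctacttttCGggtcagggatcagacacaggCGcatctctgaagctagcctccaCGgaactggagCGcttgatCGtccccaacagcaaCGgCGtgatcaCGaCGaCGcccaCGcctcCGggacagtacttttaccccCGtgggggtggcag
Morc2a gap, chr11:3648691-3648930, plus strand: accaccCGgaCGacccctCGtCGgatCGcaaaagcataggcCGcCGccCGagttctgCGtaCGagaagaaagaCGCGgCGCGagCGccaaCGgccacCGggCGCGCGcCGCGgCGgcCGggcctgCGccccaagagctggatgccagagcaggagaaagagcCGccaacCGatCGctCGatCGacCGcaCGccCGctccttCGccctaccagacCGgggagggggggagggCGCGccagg
Meis2 gap, chr2:116063408-116063647, minus strand: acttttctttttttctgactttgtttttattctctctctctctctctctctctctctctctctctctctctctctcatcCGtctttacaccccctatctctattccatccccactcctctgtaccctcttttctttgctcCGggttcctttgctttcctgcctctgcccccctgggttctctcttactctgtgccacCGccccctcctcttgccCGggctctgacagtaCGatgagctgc
Rassf1 gap, chr9:107552809-107553048, plus strand: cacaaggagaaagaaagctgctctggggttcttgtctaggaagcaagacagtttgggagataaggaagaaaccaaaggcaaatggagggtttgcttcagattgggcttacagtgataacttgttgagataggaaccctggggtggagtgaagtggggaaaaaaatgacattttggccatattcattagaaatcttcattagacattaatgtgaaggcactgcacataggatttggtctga
Macrod1 gap, chr19:7055735-7055974, plus strand: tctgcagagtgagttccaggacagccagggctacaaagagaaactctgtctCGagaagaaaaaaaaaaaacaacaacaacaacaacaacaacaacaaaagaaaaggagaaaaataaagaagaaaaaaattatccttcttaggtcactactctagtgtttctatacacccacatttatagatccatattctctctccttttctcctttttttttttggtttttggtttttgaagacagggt
The Junb stretch lies in the gap of 5 lists, 399 to 638 bp after the start and wholly in coding sequence, and holds 19 CpG at 65.4% GC. At Morc2a the stretch begins 500 bp before the start, is shared by the gaps of 2 lists and holds 37 CpG at 72.5% GC. The Meis2 stretch, shared by 4 lists, holds 5 CpG and a long CT repeat. Those of Rassf1 and Macrod1, each before the most upstream start and in the gap of 4 lists, hold 0 and 1 CpG at 42.5% and 34.6% GC.

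Domain widths ran from 3000 to 6540 bp with a median of 3316 bp, and 537 of the 795 (67.5%) were under 3500 bp. Only 74 reached 4000 bp, and 9 reached 5000 bp. Just inside the limit were Vcan (3000 bp), a matrix proteoglycan, Ndel1 (3001 bp), a dynein regulator, and Sinhcaf (3002 bp), a Sin3 complex subunit. Just outside it were the fibrillar collagen gene Col5a2, 1 bp short, and Arhgef18 and Scd2, both of 2998 bp. The domains held 6.14% of all base pairs under Q111SST peaks. Broad did not mean highest scored. The median score percentile, the share of the list's peaks with a lower score plus that of tied peaks counted to their midpoint, was 72.8 for the domains and 81.3 for the 4305 peaks of 2000 to under 3000 bp.

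Most domains lay over a gene start. A protein-coding start was inside 667 of the 795 (83.9%, 81.2% to 86.3%), against 80.2% (79.0% to 81.4%) of the peaks of 2000 to under 3000 bp and 25.5% of all Q111SST peaks. Another 20 held only the start of a long noncoding RNA, 78 lay in a coding gene without covering a start, 4 lay on unplaced contigs and 26 had none of these. Of the 78, a coding start was within 1000 bp of 43. In 137 domains the starts of at least 2 coding genes were covered. The coding genes came to 805, which is 7.39% of the 10898 genes with a start in any Q111SST peak. The same share of a list's own genes was 6.75% with loxapine, 6.15% with meclizine, 5.9% in Q7SST, 3.65% with cyproheptadine and 2.56% with DKI. Median GC content was 51.2% and median CpG density 3.91 per 100 bp, near the 52.0% and 4.20 of the 2000 to under 3000 bp peaks. Chromosome 11 had the largest share of its peaks in domains, 3.10% (87 domains), followed by chromosome 3 with 2.90%, while chromosome 9 had the smallest, 1.39%.

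Domains reached mostly into the gene. In the 530 domains with the starts of 1 coding gene, the median reach was 830 bp before the most upstream start and 2543 bp after it. The downstream arm was the longer in 466 of the 530 (87.9%, 84.9% to 90.4%).

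The fate of the domains in the other lists addressed how genotype and compounds went with the breadth of the mark. In Q7SST, 9 domains (1.13%) had no overlapping peak, against 30.8% of all Q111SST peaks. In the 4 compound lists 0 of 795 had none (upper bound 0.481%), while 28.1% of all Q111SST peaks had none with cyproheptadine, 30.2% with DKI, 14% with meclizine and 9.82% with loxapine. Peaks of 2000 to under 3000 bp were also seldom without a counterpart, in 2.35% of cases in Q7SST, 0.743% with cyproheptadine, 0.929% with DKI, 0.0697% with meclizine and 0.0465% with loxapine. Of the 9 domains, only Fmn1, a formin that nucleates actin, and Tmem140, a membrane protein, had a coding start. Broken domains made up 28.9% with cyproheptadine (230 domains, 25.9% to 32.2%), 26.0% with loxapine (207, 23.1% to 29.2%), 26.0% with DKI (207, 23.1% to 29.2%), 13.0% in Q7SST (103, 10.8% to 15.5%) and 8.55% with meclizine (68, 6.80% to 10.7%). The same call over all Q111SST peaks gave 1.61% with cyproheptadine, 1.46% with loxapine, 1.43% with DKI, 0.589% in Q7SST and 0.542% with meclizine. Among peaks of 2000 to under 3000 bp it gave 8.27%, 7.36%, 7.32%, 2.37% and 2.58% in the same order. A wide peak has more room for a gap than a narrow one, so the domains' share was read beside the 2000 to under 3000 bp peaks. Pieces numbered 3 or more in 5 domains with cyproheptadine, 3 with loxapine, 8 with DKI, 1 in Q7SST and 0 with meclizine. The lowest share was that with meclizine, and the other Group B compound, DKI, had the same count as loxapine of Group A. The broken shares depended on how far apart 2 peaks must be: with peaks of the other list joined across 1000 bp they were 11.8% with cyproheptadine, 10.9% with loxapine, 11.8% with DKI, 5.28% in Q7SST and 3.40% with meclizine. With only peaks scoring 47 or more, which keeps 44.5% of the peaks with cyproheptadine, 49.3% with loxapine, 49.7% with DKI, 53.1% in Q7SST and 55.7% with meclizine, they were 11.9%, 15.0%, 8.55%, 5.79% and 4.15% in that order.

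**Figure D1:**
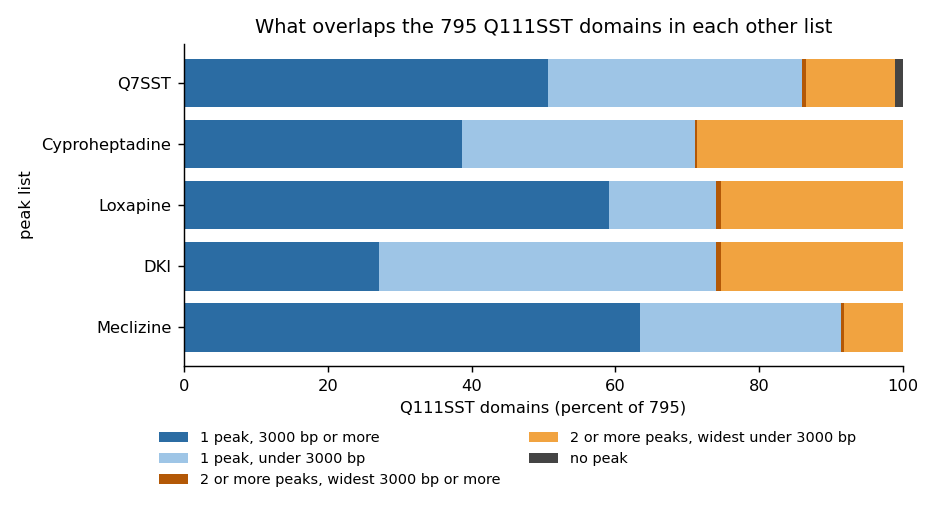
Share of the 795 Q111SST domains (horizontal axis, percent) in each of the other 5 lists (vertical axis) by what overlapped them, with no error bars. The orange shares, domains under 2 or more peaks, make up 28.9% with cyproheptadine and 8.55% with meclizine, and the dark blue share, 1 peak of at least 3000 bp, is smallest with DKI.

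Width gave another order. The widest overlapping peak was still at least 3000 bp for 63.8% of domains with meclizine (60.4% to 67.0%), 59.9% with loxapine (56.4% to 63.2%), 51.3% in Q7SST (47.8% to 54.8%), 38.9% with cyproheptadine (35.5% to 42.3%) and 27.9% with DKI (24.9% to 31.1%). Over all Q111SST peaks these shares were 1.95%, 1.76%, 1.73%, 0.903% and 0.666%. The widest overlapping peak had a median width of 96.8% of the Q111SST width with loxapine (95% order-statistic interval 95.4% to 97.8%), 95.1% with meclizine (94.4% to 95.9%), 91.8% in Q7SST (90.4% to 93.0%), 85.9% with cyproheptadine (82.9% to 88.2%) and 78.4% with DKI (75.4% to 80.4%). Over all Q111SST peaks the median was 95.8%, 89.5%, 82.0%, 68.0% and 62.9% in the same order, and over the peaks of 2000 to under 3000 bp it was 98.2%, 93.3%, 94.6%, 88.9% and 82.9%, so peaks of other widths were narrower in these lists too. Loxapine and meclizine, whose intervals overlap here, reached that median in different ways. The lower quartile was 64.5% with loxapine and 86.1% with meclizine. Domains that stayed 1 peak had a median width of 99.9% with loxapine, 96.0% with meclizine, 94.5% in Q7SST, 92.5% with cyproheptadine and 85.6% with DKI. For peaks of 2000 to under 3000 bp that stayed 1 peak it was 99.0%, 93.6%, 95.2%, 90.3% and 84.2% in that order. Over all Q111SST peaks that stayed 1 peak it was 98.5%, 93.3%, 96.6%, 83.5% and 79.1%.

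**Figure D2:**
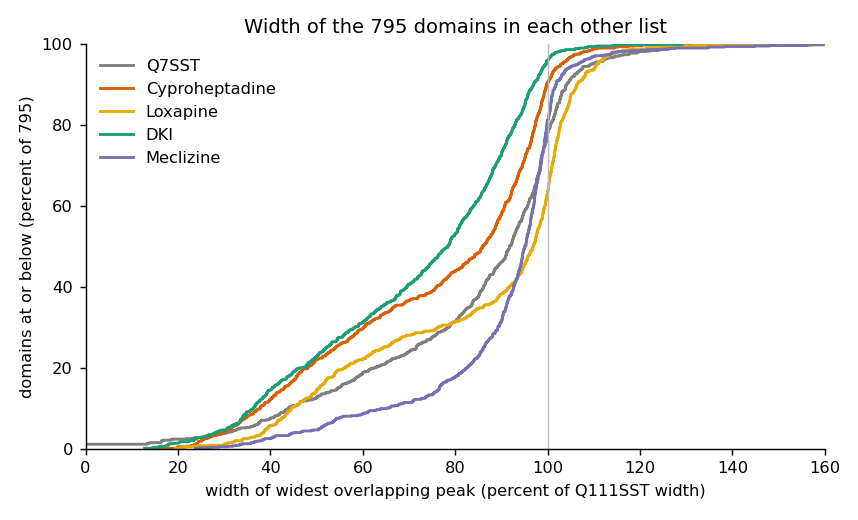
Cumulative share of the 795 domains (vertical axis, percent) by the width of the widest overlapping peak as a percent of the Q111SST width (horizontal axis), 1 line per list. The DKI line lies leftmost through its median of 78.4%, and the loxapine line has a long lower tail but crosses its median at 96.8%.

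Domains at least 1.5 times narrower were 36.6% with DKI, 35.0% with cyproheptadine, 26.4% with loxapine, 22.3% in Q7SST and 10.6% with meclizine. Over all Q111SST peaks the same call gave 52.9%, 49.2%, 21.6%, 42.3% and 26.1%, a share that includes peaks with no counterpart. Among peaks of 2000 to under 3000 bp, few of which lacked a counterpart, it gave 22.5%, 20.2%, 11.7%, 13.2% and 6.74%, each below the share of the domains. The call uses the widest piece, so breakup enters it. Among peaks that stayed 1 peak, the median widths given above were lower for the domains than for this band only in Q7SST. A widest peak at least 1.5 times wider was found at 1 domain in Q7SST (8.15% of all Q111SST peaks), 3 with meclizine (6.6%), 2 with loxapine (9.18%), and 0 with cyproheptadine (2.34%) and DKI (1.95%). Among peaks of 2000 to under 3000 bp it was rare too, at 0.859%, 0.743%, 0.279%, 0.0929% and 0.116% in the same order. The lists also differ in how many wide peaks they hold: 679 of at least 3000 bp with loxapine, 676 with meclizine, 637 in Q7SST, 355 with cyproheptadine and 255 with DKI. When each list's own 795 widest peaks were taken in place of a fixed width, the domains found among them were 71.3% with meclizine, 64.5% with loxapine, 59.2% with cyproheptadine, 57.6% in Q7SST and 54.7% with DKI. The median change of the domains' score percentile from Q111SST ran from a fall by 2.65 points with DKI to a rise of 2.31 points with loxapine, while over all Q111SST peaks it ran from a fall by 8.58 points with DKI to a rise of 1.84 points with loxapine.

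Because width in Q111SST chose the domains, domains of each other list were also followed into Q111SST. Those of cyproheptadine were broken in Q111SST in 2.82% of 355 cases, of loxapine in 5.01% of 679, of DKI in 5.49% of 255, of Q7SST in 11.0% of 637 and of meclizine in 16.0% of 676. Breakup thus stood at 28.9% and 2.82% in the 2 directions for cyproheptadine, at 26.0% and 5.01% for loxapine, and at 26.0% and 5.49% for DKI. For Q7SST the 2 directions gave 13.0% and 11.0%. For meclizine the order turned, with 8.55% of Q111SST domains broken with meclizine and 16.0% of meclizine domains broken in Q111SST. The widest overlapping Q111SST peak had a median width of 96.7% of the list's own for loxapine domains (95.8% to 97.5%), 97.1% for Q7SST (95.8% to 97.9%), 100.3% for meclizine (99.8% to 100.7%), 102.1% for cyproheptadine (101.3% to 102.9%) and 104.5% for DKI (103.1% to 105.1%). For loxapine the width thus stood at 96.8% and 96.7% in the 2 directions, so that each list's domains were slightly narrower in the other. For DKI and cyproheptadine the domains of either choice were narrower in the compound list. The Q111SST peak was still at least 3000 bp for 64.1% of Q7SST domains, 70.1% of loxapine, 75% of meclizine, 87.0% of cyproheptadine and 87.1% of DKI domains.

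Gaps lay on the starts of genes more in some lists than others. Pieces of broken domains left 235 gaps with cyproheptadine, 215 with DKI, 210 with loxapine, 104 in Q7SST and 68 with meclizine, and their median length was 935.5 to 951 bp. A coding start lay inside 65.7% of the gaps with loxapine (59.1% to 71.8%), 58.7% with cyproheptadine (52.3% to 64.8%), 48.4% with DKI (41.8% to 55.0%), 46.2% in Q7SST (36.9% to 55.7%) and 41.2% with meclizine (30.3% to 53.0%). Among the 530 domains of 1 coding gene, a gap took in the most upstream start of 101 with loxapine (19.1%), 90 with cyproheptadine (17.0%), 80 with DKI (15.1%), 27 in Q7SST (5.09%) and 19 with meclizine (3.58%). Gaps in narrower peaks were not counted, so gaps over starts are not shown to be particular to the domains.

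Gaps were mostly richer in GC than their domains, in 183 of 209 with loxapine and in 41 of 67 with meclizine, the ends of the range. Median GC content of the gaps was 67.9% with loxapine, 65.7% with cyproheptadine, 65.2% with DKI, 64.6% in Q7SST and 56.1% with meclizine, while the domains around them had medians of 52.5% to 53.1%. The Junb and Morc2a stretches printed above are of this kind. Gaps with a coding start had a median of 68.8% to 70.6% GC and 9.44 to 11.0 CpG per 100 bp in the 5 lists. Gaps without a start had medians of 46.4% to 57.3% GC and 1.24 to 4.08 CpG per 100 bp. The Rassf1 and Macrod1 stretches, at 42.5% and 34.6% GC, lie below both ranges. The 500 bp around the start also differed by fate: with loxapine its median GC was 70.0% (68.8% to 71.2%) where a gap took in the start and 63.5% (62.8% to 64.4%) where the domain stayed 1 peak, and with cyproheptadine 69.6% (68.0% to 71.0%) and 63.6% (62.8% to 64.6%). In the other direction, a coding start lay in 87 of the 110 gaps that Q111SST left in meclizine domains (79.1%), 11 of 14 in DKI domains, 50 of 70 in Q7SST domains (71.4%), 4 of 10 in cyproheptadine domains and 12 of 34 in loxapine domains (35.3%). Their median GC content was 70.7%, 63.3%, 69.4%, 60.7% and 51.5% in the same order. The GC content of the sequence moved with the gaps, and its part in them was not tested.

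**Figure D3:**
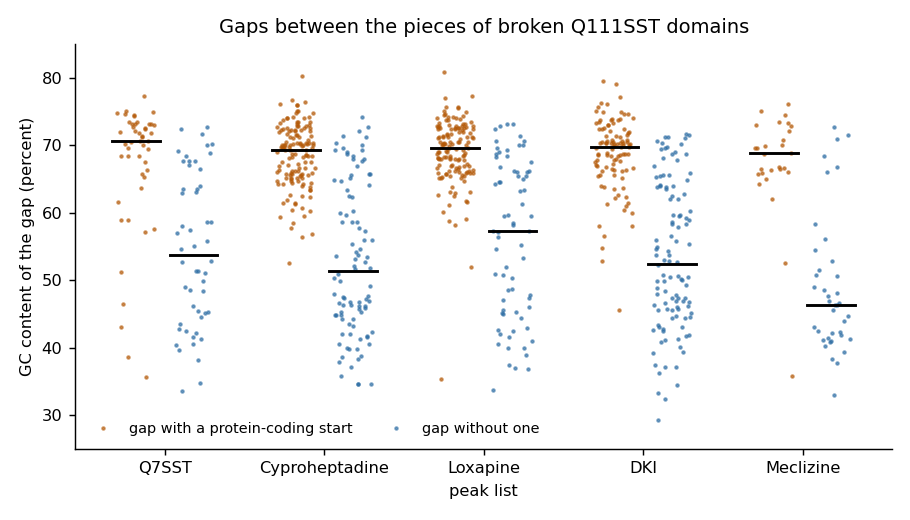
GC content (vertical axis, percent) of each gap between the pieces of broken Q111SST domains, by list (horizontal axis), for gaps with a protein-coding start (brown) and without one (blue). Points are gaps, spread sideways at random, and black lines are medians, which lie at 68.8% to 70.6% for gaps with a start and 46.4% to 57.3% for the others.

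Cover along the gene separated the lists in 2 places. It was measured for the domains only, as were the shifts of their ends below. Neither is shown to be particular to the domains. Within the first 100 bp after the start, peaks covered 95.3% of the 530 domains with meclizine, 91.7% in Q7SST, 77.5% with DKI, 75.1% with cyproheptadine and 74.0% with loxapine. Q111SST covers all of them there, since the start had to lie in its peak. About 1950 bp into the gene the order was another: 82.3% in Q111SST, 77.7% with loxapine, 70.9% with meclizine, 67.4% with cyproheptadine, 62.6% in Q7SST and 54.3% with DKI. Where the domain stayed 1 peak, its downstream end moved toward the start by a median of 338 bp with DKI (297 to 391 bp), 147 bp in Q7SST and 74 bp with meclizine, and away from it by 21 bp with loxapine. The cyproheptadine value lay between those of meclizine and Q7SST. The upstream end moved toward the start by 65.5 bp with cyproheptadine, 54 bp with DKI, 12 bp with meclizine and 9 bp with loxapine. In Q7SST its median lay 6 bp further from the start, with an interval from 15 bp away to 4 bp toward it.

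**Figure D4:**
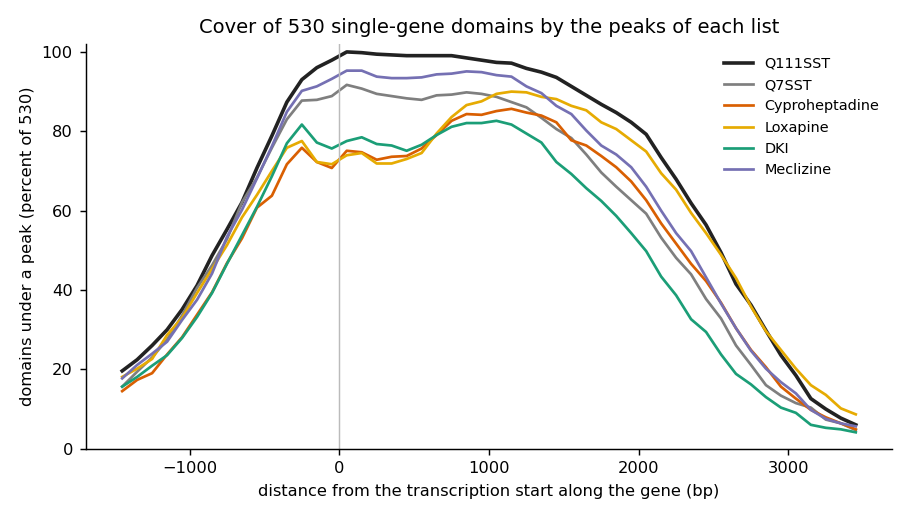
Share of the 530 domains of 1 coding gene under a peak (vertical axis, percent) by distance from the most upstream start along the gene (horizontal axis, bp, 100 bp steps), 1 line per list. Loxapine, cyproheptadine and DKI stand between 74.0% and 77.5% just after the start, and DKI is lowest 1950 bp downstream at 54.3%.

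Of the 10 widest domains, 6 held a coding start. Meis2, a homeobox factor of the developing striatum, had a domain of 5525 bp (chr2:116061853-116067377). Its widest peak was 1706 bp in Q7SST, 3353 bp with cyproheptadine, 3394 bp with loxapine, 3356 bp with DKI and 3374 bp with meclizine. In the 4 compound lists the domain lay under 2 peaks, of which the first ended 1837 to 1872 bp and the second began 2751 to 2943 bp after the start, on either side of the CT repeat printed above. In Q7SST 1 peak around the start overlapped it. Meis1, a relative of Meis2, had 5314 bp (chr11:19015493-19020806) and stayed 1 peak in every list, of 3733 bp in Q7SST, 3968 bp with cyproheptadine, 3890 bp with loxapine, 4102 bp with DKI and 5300 bp with meclizine. Hivep2, a zinc finger factor, had 4944 bp and kept its width in Q7SST (4982 bp) and with meclizine (4934 bp). Its widest peak fell to 2622 bp with cyproheptadine, 3604 bp with loxapine and 2365 bp with DKI, where the domain lay under 3 peaks.

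Myc, an immediate early gene that drives growth, and Junb, an immediate early subunit of AP-1, were broken in each of the other 5 lists. The Myc domain of 5389 bp (chr15:61983591-61988979) had a widest peak of 4222 bp in Q7SST, 4212 bp with cyproheptadine, 3950 bp with loxapine, 3912 bp with DKI and 4216 bp with meclizine. Each list kept the start of Myc in its main peak and left a gap further into the gene. At Junb (chr8:84975721-84981073, 5353 bp) the widest peak was 2238 bp in Q7SST, 2026 bp with cyproheptadine, 2612 bp with loxapine, 1081 bp with DKI and 2161 bp with meclizine. Here the gap took in the start in the 4 compound lists, and in Q7SST the first peak ended 204 bp after it. The 250 bases before the Junb start, from RefSeq on GRCm38, are shown because the compound lists' gap begins in them, with CpG in capitals.
Junb before its start, chr8:84978749-84978998, minus strand: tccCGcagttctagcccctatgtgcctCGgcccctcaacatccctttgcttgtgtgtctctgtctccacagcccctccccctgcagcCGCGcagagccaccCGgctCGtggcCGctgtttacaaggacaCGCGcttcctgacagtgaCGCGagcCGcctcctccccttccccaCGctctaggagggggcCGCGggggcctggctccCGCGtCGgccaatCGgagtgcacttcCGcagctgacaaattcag
They hold 20 CpG at 66.4% GC. Cpeb4, which binds cytoplasmic polyadenylation elements, had 5148 bp, and its widest peak was 1936 bp in Q7SST, 4567 bp with cyproheptadine, 3151 bp with loxapine, 3082 bp with DKI and 4372 bp with meclizine. Malat1, an abundant nuclear noncoding RNA, had 5431 bp and 5572 bp in Q7SST. It was 4067 to 4272 bp with the compounds, always as 1 peak. The remaining 3 of the 10 widest lay on unplaced contigs.

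**Figure D5:**
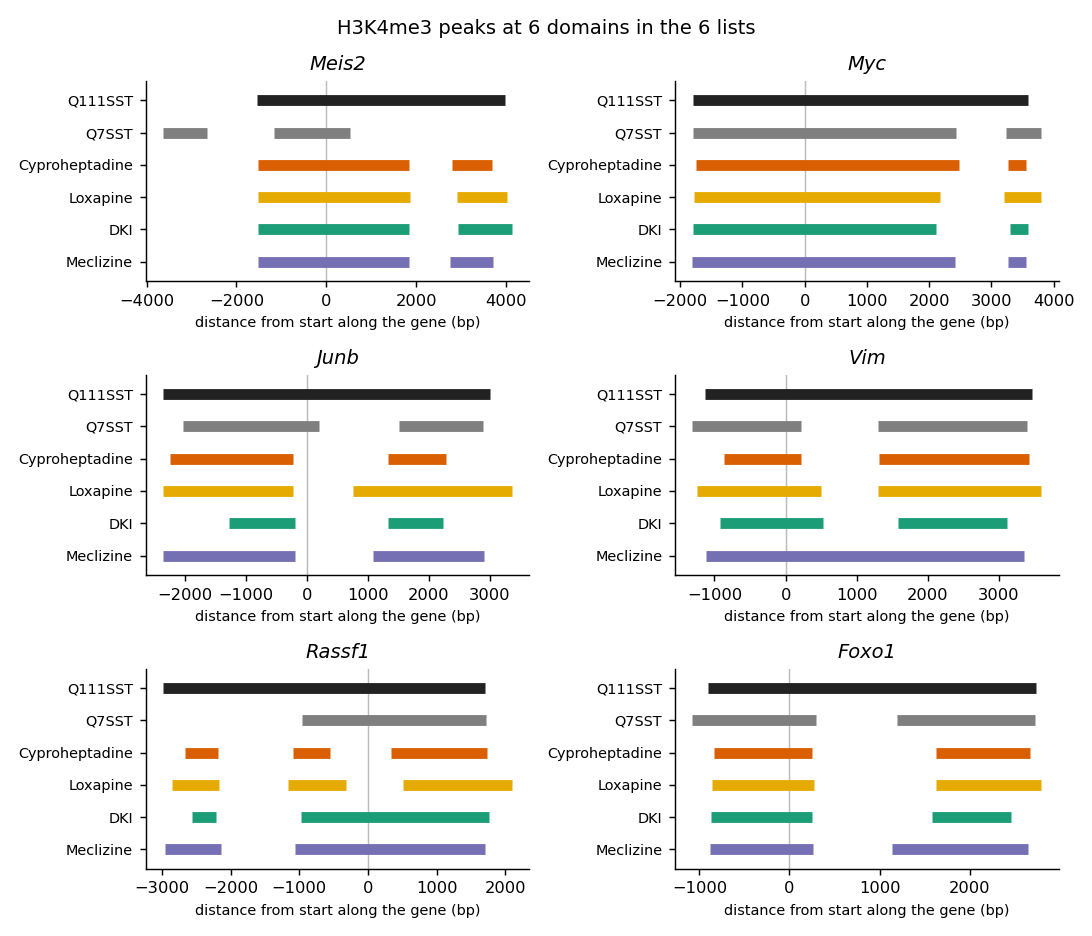
Peaks of the 6 lists (rows) as bars at 6 named domains, by distance from the most upstream start along the gene (horizontal axes, bp, scales differ, grey line at 0), with neighbouring peaks up to 1500 bp away. Junb has no peak over its start in the 4 compound lists, and Vim is 1 peak in Q111SST and with meclizine, of 4602 and 4473 bp.

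Among the most divided domains, Rassf1, a tumour suppressor, had 4690 bp and lay under 3 peaks with cyproheptadine and with loxapine, of which the widest were 1398 and 1586 bp. It lay under 2 with DKI (widest 2731 bp) and meclizine (2760 bp), and under 1 of 2676 bp in Q7SST, which ended short of the upstream part. Morc2a, an ATPase of gene silencing, had 4496 bp and 3 pieces with loxapine and DKI (widest 1350 and 1424 bp). It was 1 peak of 2583 bp in Q7SST, 2705 bp with cyproheptadine and 2820 bp with meclizine. Sin3a, the scaffold of a histone deacetylase complex, had 4382 bp and kept it with cyproheptadine (4343 bp) and meclizine (4357 bp), while its widest piece was 2599 bp in Q7SST, 2750 bp with loxapine and 1064 bp of 3 with DKI. Wwtr1, the Hippo pathway coactivator TAZ, had 3934 bp, and only cyproheptadine, with 3 pieces and a widest of 1007 bp, and DKI, with 2 and 2739 bp, broke it. Macrod1, an ADP-ribose hydrolase, had 3250 bp and was in 3 pieces with loxapine (widest 694 bp). Hist2h2aa1 and Hist2h3c1, histone genes with near-identical copies whose reads may be shared, had 3 pieces with cyproheptadine.

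At the narrow end, among domains with a coding start, the widest peak with DKI was 463 bp at Cltb (clathrin light chain, 3619 bp in Q111SST), 500 bp at Sbno2 (3454 bp) and 559 bp at Zmynd8 (a chromatin reader, 3718 bp). With cyproheptadine it was 457 bp at Sh3kbp1 (an endocytic adaptor, 3195 bp), 791 bp at Adgre5 (an adhesion receptor, 3979 bp) and 721 bp at Itgb8 (an integrin, 3614 bp). Loxapine gave 820 bp at Adgre5, 694 bp at Macrod1 and 726 bp at Ube2f (a NEDD8-conjugating enzyme, 3356 bp). Meclizine gave 885 bp at Zmynd8, 814 bp at Bicra (a subunit of a BAF remodelling complex, 3005 bp) and 1100 bp at Pde12 (a mitochondrial deadenylase, 3455 bp). In Q7SST, beside Fmn1 and Tmem140 at 0, the lowest width percent among domains with a coding start was that of Loxl1 (an elastin crosslinking enzyme) at 555 bp of 3425 bp. These low values were not shared by every list: Bicra and Pde12 kept 3070 and 3398 bp in Q7SST, and Sbno2 kept 3413 bp with meclizine.

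A widest peak wider by any amount than in Q111SST was found at 289 domains with loxapine (36.4%), 173 in Q7SST (21.8%), 149 with meclizine (18.7%), 75 with cyproheptadine (9.43%) and 32 with DKI (4.03%). Over all Q111SST peaks the shares were 41%, 29.1%, 28.4%, 12.4% and 9.08% in the same order, each above that of the domains. Among peaks of 2000 to under 3000 bp they were 40.8%, 28.9%, 18.2%, 11.4% and 5.55%. With meclizine the share of the domains was thus slightly the higher. The genes named next had the highest width percent among domains with a coding start. Arid5b, a DNA-binding cofactor, had 3424 bp in Q111SST, 4964 bp in Q7SST, 5032 bp with cyproheptadine and 5068 bp with meclizine, each of these covering 2 Q111SST peaks. It was 3550 bp with loxapine and 3374 bp with DKI. Tle3, a Groucho corepressor, reached 5914 bp with meclizine and 4742 bp in Q7SST from 3764 bp, also across 2 Q111SST peaks. Rara, a retinoic acid receptor, reached 4785 bp with meclizine in the same way from 3065 bp, and was 1093 bp in Q7SST. Cyp26b1, which degrades retinoic acid, was 4512 bp in Q7SST and 3011 bp in Q111SST. Zbtb7b, a zinc finger factor, was 5412 bp in Q7SST, 5332 bp with cyproheptadine and 4119 bp in Q111SST. Cavin2, a coat protein of caveolae, reached 4857 bp with loxapine from 3299 bp, followed by B3gnt2 (4053 from 3184 bp) and Rab30 (4472 from 3556 bp). Myo1e, a class I myosin, was 3668 bp with cyproheptadine and 3090 bp in Q111SST. With DKI the widest relative to Q111SST were Samd4 (3913 from 3029 bp), a pair of predicted genes in repeat sequence on chromosome 9 and Thbs1 (3874 from 3377 bp), a matrix glycoprotein that was wider than in Q111SST in all 5 lists.

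Gene groups were described by how many of their members with a start in a Q111SST peak had it in a domain. Over all such genes the share was 7.39%, and the median width of the peak at the start was 1897.5 bp. Width chose the domains, so these counts are descriptions. Signalling feedback genes had 6 of 14 in domains, all of them Dusp phosphatases that switch off MAP kinases: Dusp6, Dusp5, Dusp1, Dusp7, Dusp10 and Dusp4. Immediate early genes had 6 of 16, Myc, Junb, Jun, Egr1, Egr3 and Jund, with a median peak of 2768.5 bp. Genes of the striatal lineage had 3 of 8, Meis2, Foxp1 and Ebf1. Actin and adhesion genes had 5 of 15 (Vim, Actg1, Ahnak, Itgb1 and Lmna), and growth factor, Notch, Wnt and hedgehog signalling 5 of 17 (Tgfbr2, Fgfr1, Pdgfra, Tgfb1 and Vegfa). Neural progenitor genes had 2 of 7 (Vim and Hes1), mesenchymal transcription factors 3 of 11 (Six2, Twist2 and Tbx3), glycolysis genes 4 of 15 (Eno1, Pgk1, Gapdh and Pgam1) and tumour suppressors 3 of 14 (Trp53, Foxo1 and Fbxw7). Hox genes had 3 of 17 (Hoxb9, Hoxb2 and Hoxb6) and autophagy genes 2 of 16 (Gabarapl1 and Atg3). Cytosolic ribosomal protein genes had 0 of 18 and electron transport genes 0 of 17, although all of both groups were marked, with median peaks of 1950 and 1987 bp.

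Members of these groups did not share a fate. Dusp6 was 4305 bp in Q111SST and stayed 1 peak of 3707 bp in Q7SST, 4323 bp with cyproheptadine, 4802 bp with loxapine, 4159 bp with DKI and 4303 bp with meclizine. Dusp5 was 4297 bp and 4148 bp in Q7SST but broken with all 4 compounds, with a widest piece of 2505 bp with cyproheptadine, 2672 bp with loxapine, 1311 bp with DKI and 2272 bp with meclizine. Vim, the intermediate filament protein of progenitors and fibroblasts, was 4602 bp and 4473 bp with meclizine, and was broken elsewhere, with a widest piece of 2098 bp in Q7SST, 2110 bp with cyproheptadine, 2296 bp with loxapine and 1536 bp with DKI. Foxo1, a forkhead factor of stress and starvation responses, was 3646 bp and broken in all 5 other lists, with a widest piece of 1093 to 1533 bp. Foxp1, a forkhead factor of striatal neurons, was 4612 bp and held 4537 bp in Q7SST and 4590 bp with loxapine. It had 3767 bp with DKI and was broken with cyproheptadine (widest 2095 bp) and meclizine (2034 bp), where a peak of 4438 bp lay at another Foxp1 start outside this domain. Ebf1, another striatal factor, was 3435 bp, 2348 bp in Q7SST and 1250 bp with DKI, and 3212 to 3358 bp in the other 3 lists. Six2, a mesenchymal progenitor factor, was 4086 bp and at most 1482 bp elsewhere. Eno1, a glycolytic enzyme, was 3811 bp and 3510 to 4263 bp in the other lists, always as 1 peak.

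The cell type was checked at marker genes with a peak within 1000 bp of a start in Q111SST, which 57.5% of the 21842 protein-coding genes had. Neural progenitor markers were marked in 6 of 8 genes (not Sox1 or Hes5) and striatal lineage markers in 6 of 9, and 1 and 2 of them had a domain. Astrocyte markers were marked in 0 of 3 genes, oligodendrocyte lineage markers in 0 of 4, neuron, microglia and endothelial markers in 2 of 4 each, and mesenchymal markers in 8 of 8. With lists this short, the counts of neural progenitor, striatal, neuron, microglia and endothelial markers were near the share of all genes and did not settle the label.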

How the data were processed

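H3K4me3 ChIP-Seq peak lists of 6 conditions were used as deposited by the authors, with 1 line per peak giving its position and a whole-number score of at least 10. The scale of the deposited score is not given in the sources used here, so scores were ranked within a list, except in 1 alternative that kept scores of 47 (the median over all lists) and higher, and so a different share of each list. Per the submitters' processing notes, Trimmomatic 0.36, Bowtie2, SAMtools 1.3, MACS2 and the build mm10 were used. Settings, input control and any pooling of replicate treatments are not given. Read totals were not used here, so depth is unknown.

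Widths were end minus start as deposited. Printed positions name the first and last base of a peak, and both count in its width. Peaks were followed by an overlap of at least 1 bp, a domain with no counterpart counted as width 0, and percentiles counted ties at their midpoint. Starts were those of protein-coding transcripts in GENCODE M21, sequence came from GRCm38.p6, and 630 of 805 member genes matched the RefSeq promoter table. A peak beyond a GRCm38 end was found on 0 of 21 chromosomes. Shares carry 95% Wilson intervals and medians 95% order-statistic intervals; neighbouring peaks are not independent.

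The members, gene lists, marker lists and naming rules were chosen with earlier results of these data known. Named were the 10 widest domains, for each other list and among domains with a protein-coding start the 3 lowest and 3 highest by width percent and the 3 with the most peaks, the 3 domains just inside and 3 peaks just outside the limit, and listed genes, widest first and at most 6 per list. Some listed genes, 2 gene groups and some sequences are not reported here. The following code was tested on simulated data. Figures were drawn with matplotlib 3.10.9, sequence was read with pysam 0.24.0, intervals came from scipy 1.17.1, and tables were handled in pandas 2.3.3 and numpy 2.4.6 under Python 3.11.15.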

Additional observations from a re-analysis of the deposited data

How the results depend on the processing

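Joining peaks of the other list within 813 bp, the largest of the 6 smallest distances between peaks, or within 1000 bp was chosen after seeing the data. Of 126 values recomputed under 10 settings, 71 stayed within the interval or factor of the reported value and 55 moved. None of the 16 values for chromosomes 1 to 19 and X or of the 15 for a minimum overlap of 200 bp moved, and joining peaks within 500 bp changed nothing, since no 2 peaks lay that close. In what follows values are in the order Q7SST, cyproheptadine, loxapine, DKI, meclizine. With domains of at least 4000 bp (74) the share kept at that width was 36.5%, 29.7%, 47.3%, 18.9% and 56.8%, the share broken 29.7%, 36.5%, 40.5%, 41.9% and 17.6%, and the median width 83.2%, 75.9%, 84.4%, 68.7% and 96.4%. With only peaks of the other list scoring at least 47, the share kept was 47.0%, 31.1%, 54.5%, 21.8% and 59.7%, the share broken 5.79%, 11.9%, 15.0%, 8.55% and 4.15%, and the median width 89.7%, 73.6%, 95.2%, 68.1% and 94.4%. Joined within 1000 bp, the share kept was 58.2%, 51.1%, 74.0%, 36.5% and 68.6%, the share broken 5.28%, 11.8%, 10.9%, 11.8% and 3.40%, and the median width 94.4%, 92.1%, 99.5%, 84.9% and 95.9%. Joined within 813 bp, the share broken was 25.2% with cyproheptadine, 22.1% with loxapine and 22.3% with DKI, and the share kept 63.4% with loxapine. With the strongest 30758 peaks of every list, the share broken was 9.87% in Q7SST, 21.4% with loxapine and 6.71% with meclizine. A limit of 2500 bp gave 2154 domains, and a start within 1000 bp of the domain in place of inside it gave 89.4%. The share broken was lowest with meclizine under each of the 8 settings that recomputed it. The cause of these shifts was not tested. No paired analysis was possible because there is 1 list per condition. Depth is unknown, so lists with fewer wide peaks cannot be told apart from lists of fewer reads.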

Other observations

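Some domains over 4000 bp held no protein-coding start, and those named here were chosen after their values were seen. Starts of protein-coding and long noncoding RNA genes were looked up, and those of microRNAs were not. A domain of 4246 bp inside Vmp1 on chromosome 11, a gene of autophagosome formation, lay 28020 bp from the nearest coding start and was 1 peak of 4174 bp in Q7SST, 4043 bp with cyproheptadine, 4066 bp with loxapine, 4071 bp with DKI and 4193 bp with meclizine. At the noncoding RNA gene Gm6634 a domain of 4011 bp was 3972 bp in Q7SST and 4085 bp with meclizine, and was broken with cyproheptadine (widest 2330 bp), loxapine (2560 bp) and DKI (2298 bp).

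Repeat-like sequence carried some of the broad domains. A domain on chromosome 1 (chr1:24611730-24616038, 4309 bp) shared 98.7% of its 31-base words with the mouse mitochondrial genome. Its score percentile was 16.9 in Q7SST, 32.6 with meclizine, 35.4 in Q111SST, 57.3 with loxapine, 65.8 with cyproheptadine and 74.8 with DKI. Of the domains on assembled chromosomes, 5 were over 50% soft-masked repeat, among them Gm10722 with Gm11168 (96.5% of 4751 bp). On the unplaced contig JH584304 the widest domain, of 6540 bp, was 881 bp in Q7SST, 5711 bp with cyproheptadine, 6551 bp with loxapine, 6503 bp with DKI and 2893 bp with meclizine. Reads in such sequence may belong to other copies, so these widths are uncertain.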
